A study of Mus musculus with 4 samples.

Results

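The cells described are 169 single cells of an embryonic day 17.5 (E17.5) mouse library in which at least 1 transcript of Neurog3 was counted. They were chosen by that value. A cell entered if 500 or more genes were detected in it, if no more than 20% of its UMIs were mitochondrial, and if Neurog3 had 1 UMI or more. A UMI (unique molecular identifier) tags one captured RNA molecule. They make up 3.67% (exact binomial 95% interval 3.15 to 4.26) of the 4602 E17.5 cells kept, and the whole series holds 15800 kept cells. Each group of the study has 1 library, so there was no replicate, no difference could be tested and no p-value is given. The intervals cover counting error only.

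The study profiled intestinal epithelial cells sorted by flow cytometry, and all animals carried the Bmi1-GFP genotype, a reporter in which GFP stands for activity of the Bmi1 locus. The 4 groups are E12.5 embryos, whose intestines were dissected, E17.5 embryos, whose small intestine was dissected, adults, and irradiated adults. The number and sex of the animals, the age of the adults, the sorting gates, and the dose and timing of the irradiation are not given in the sources used here. At E17.5 the Neurog3-positive cells were set beside cells of the same library without a Neurog3 UMI. The 1602 chromogranin-high cells had Chga and Chgb, the granin genes of endocrine secretory granules, at 0.1% or more of their UMIs. The 2300 chromogranin-low cells had at least 1 UMI of Epcam, an epithelial adhesion gene, and Chga with Chgb under 0.02%, and 531 kept cells were in none of these sets.

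Neurog3 encodes a basic helix-loop-helix transcription factor without which endocrine cells form neither in the intestine nor in the pancreas. It is made briefly in progenitors that are leaving the cell cycle, is held back by Notch signalling through Hes1, and acts upstream of Neurod1, Insm1, Pax4 and Nkx2-2. Cells that go on to mature make granins, prohormone convertases and peptide hormones.

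The E17.5 library held 77677622 UMIs over 5232 barcodes, of which 171 had a Neurog3 UMI and 169 passed the filter. The 169 cells held 2801185 UMIs, between 3274 and 60623 per cell with a median of 9457, against medians of 7869 in the chromogranin-high and 22813.5 in the chromogranin-low cells. Libraries shared between 6 and 12 barcodes pairwise, and none of these was a Neurog3-positive cell. Neurog3 itself came to 1197 UMIs, with a median of 4 per cell and a highest value of 39. At the edge of the rule, 42 cells had exactly 1 UMI and 4433 had 0. In cells that should lack the gene, 2 of 563 pancreatic enzyme-rich cells (0.355%, median depth 12599 UMIs) and 0 of 114 collagen-rich cells (median 6054, a count of 0 that allows a share of up to 2.63%) had a Neurog3 UMI. At the other edges, 47 kept cells had Chga with Chgb between 0.1% and 0.12% and 53 between 0.08% and 0.1%.

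The defining markers Neurod1 and Insm1, which the rule did not use, were present in most of the cells. A UMI of Neurod1 or Insm1 was counted in 146 of 169 cells (86.4%, 80.3 to 91.2), and of both in 103 (60.9%, 53.2 to 68.3). In the chromogranin-high cells 95.8% had either and 74.1% both. In the deeper chromogranin-low cells the shares were 3.43% and 0.652%.

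The 169 cells fell into 2 sets, and this bears on every result that follows. The summed level of 5 genes of the intestinal epithelium (Cdx1, Cdx2, Cdh17, Vil1 and Muc13) split them at 200 UMIs per 1000000 (CPM) into 93 intestinal-gene-high cells (55.0%, 47.2 to 62.7) and 76 intestinal-gene-low cells. This split was chosen after the data had been seen. The 93 cells had a median of 818 CPM for the 5 genes, the 76 cells a median of 0, and 63 cells had no UMI of any of them, in cells with medians of 20939 and 6087.5 UMIs in total. Next to the threshold, the highest value below it was 187 CPM and the lowest above it 215 CPM. From 100 to 200 CPM there were 11 cells, and from 200 to 300 CPM 2. In shallow cells the split rests on few UMIs: the cell at 215 CPM had 4645 UMIs in total. Split at 100 CPM, the high share was 61.5%. The sort and the labels name intestinal epithelium only, and by the split the 76 cells had few or no UMIs of its transcription factors Cdx1 and Cdx2. The label of an endocrine precursor was met by both sets in Neurod1 and Insm1, with either gene in 79 of 93 cells (84.9%) and 67 of 76 cells (88.2%), so both are called Neurog3-positive cells and no cell type name is given to the low set.

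Neurog3 was unevenly divided between the 2 sets. The 93 intestinal-gene-high cells held 409 of its UMIs (34.2%), with a median of 3 per cell, or 138 CPM. The 76 low cells held 788 (65.8%), with a median of 10 per cell, or 1172 CPM. Of the 53 cells with 10 or more Neurog3 UMIs, 40 were intestinal-gene-low, while of the 49 cells with 2 to 4 UMIs 38 were intestinal-gene-high.

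**Figure D1:**
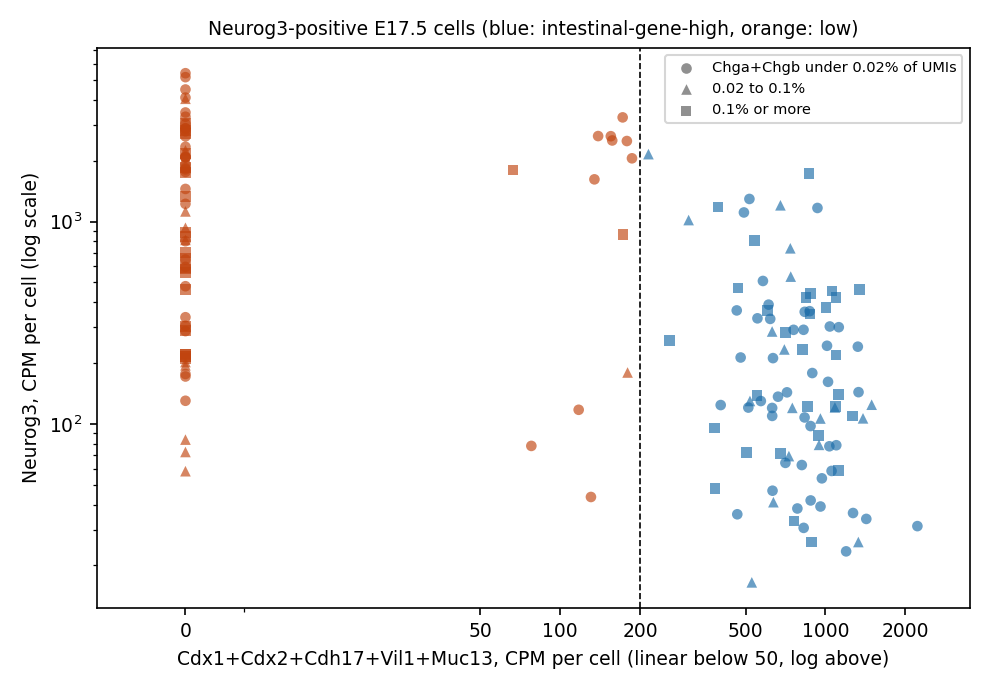
Each point is 1 of the 169 Neurog3-positive E17.5 cells, with the summed level of Cdx1, Cdx2, Cdh17, Vil1 and Muc13 in CPM on the x axis (linear below 50, log above) and Neurog3 in CPM on the y axis (log scale). Blue marks the 93 cells at or above 200 CPM (dashed line) and orange the 76 below it, 63 of which sit at 0. Shapes mark the share of UMIs from Chga and Chgb.

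Clustering of all kept E17.5 cells gave 25 clusters, and Neurog3-positive cells lay in 13 of them. A cluster of 124 cells led by Spp1, Fmo2 and Col9a3 held 47 of them, of which 46 were intestinal-gene-low, and 658 of the Neurog3 UMIs. A cluster led by Arg1, Tubb3, Hhex, Nkx6-1 and Sst held 24, of which 23 were low. Among the intestinal-gene-high cells, 34 lay in a cluster of 169 cells led by Igfbpl1, Tac1, Gfra3, Fev and Insm1, and 19 in a cluster led by Plb1, Mboat4 and Ghrl. A further 14 lay among 517 cells led by Ascl2, Olfm4 and Lgr5, genes of crypt base stem cells, and 9 among 176 cells led by defensins, Clca1 and Muc2, genes of Paneth and goblet cells. Another 5 lay among 371 cells with Alpi among their leading genes, and 3 among 324 cells with Lct and Fabp1, genes of absorptive enterocytes. The high cells were thus spread mainly over stem-like, secretory and endocrine surroundings, with a few among enterocyte-like cells. The low cells were mainly in 2 clusters without intestinal genes. Dividing the cells by the median of their cluster in place of their own level put 166 of 169 on the same side.

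The region before the gene start is shown for Neurog3, for Neurod1 and Nkx2-2, which it acts upstream of, and for Btbd17, picked after its values were seen because its level in the low set was higher with more Neurog3 UMIs, as described further on. The sequences are RefSeq's, from mouse build GRCm38.p6, 5′ to 3′ on the gene's strand, cut to the bases before the first exon that no other exon covers. Capitals mark the E-box CANNTG, the core motif bound by basic helix-loop-helix factors, which reads the same on both strands. The windows are 101 bases for Neurod1 (chr2:79456786-79456886, minus strand), 197 for Nkx2-2 (chr2:147186456-147186652, minus strand), 250 for Neurog3 (chr10:62132840-62133089, plus strand) and 197 for Btbd17 (chr11:114795946-114796142, minus strand).
Neurod1: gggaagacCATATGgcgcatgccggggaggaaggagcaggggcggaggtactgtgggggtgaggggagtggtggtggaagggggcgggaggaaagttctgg
Nkx2-2: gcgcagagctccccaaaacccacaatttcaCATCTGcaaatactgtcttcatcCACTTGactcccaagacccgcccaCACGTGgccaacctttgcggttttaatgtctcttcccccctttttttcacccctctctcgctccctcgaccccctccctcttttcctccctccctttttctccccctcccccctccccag
Neurog3: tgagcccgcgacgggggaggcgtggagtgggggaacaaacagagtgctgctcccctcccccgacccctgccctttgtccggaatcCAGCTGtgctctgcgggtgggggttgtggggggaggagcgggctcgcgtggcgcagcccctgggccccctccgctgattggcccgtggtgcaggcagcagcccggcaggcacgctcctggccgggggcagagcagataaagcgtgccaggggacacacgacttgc
Btbd17: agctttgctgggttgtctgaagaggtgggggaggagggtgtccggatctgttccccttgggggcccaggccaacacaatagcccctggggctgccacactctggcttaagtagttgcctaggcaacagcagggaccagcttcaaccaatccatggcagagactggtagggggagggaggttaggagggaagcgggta
Neurod1 had 1 E-box, Nkx2-2 had 3, Neurog3 had 1 and Btbd17 had 0. The first E-box of Nkx2-2 is CAGATG read on the opposite strand. Of 32851 mouse promoters, 66.2% held CANNTG and 14.4% CAGATG in the 250 bases before the start, so a match is common. CACNAG, searched on both strands as a motif of Hes-type repressors, was in none of the 4 windows and in 36.7% of all promoters. Of the 30 endocrine transcription factor genes described next, 23 matched the table with 32 starts, of which 19 (59.4%) held CANNTG.

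All 169 cells were first compared as 1 set, with UMIs summed over cells and scaled to CPM. Against the chromogranin-high cells, 908 of 11376 genes (7.98%) were at least 2-fold higher and 1136 (9.99%) at least 2-fold lower, and the median over all genes was 0.03 on the log2 scale with 1 CPM added. Against the chromogranin-low cells, 996 (8.76%) were at least 2-fold higher and 419 (3.68%) at least 2-fold lower, with a median of 0.08. The genes furthest above the chromogranin-high cells included Spp1 (1086 against 48.1 CPM, an extracellular matrix phosphoprotein), Ooep (58.9 against 2.16), Cxcl12 (32.8 against 1.57, a chemokine) and Col9a3 (44.98 against 3.07). The 4 furthest below were the hormone genes Gip (26.4 against 10074), Nts (53.2 against 11203), Gcg (36.8 against 6571) and Gast (1.78 against 386). They were followed by Adgrg4, a receptor (2.499 against 178), Cck (574 against 28837), Ucn3, Vgf, Qpct and Nt5e. Of the Cck UMIs of the 169 cells, 43.3% came from 1 cell.

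Several of these values belonged to a single one of the 2 sets. Spp1 was at 2.28 CPM in the 93 high cells and 5017 in the 76 low cells, and Cxcl12 and Col9a3 were at 0 in the high cells against 152 and 208. Ins2, the gene furthest above the chromogranin-low cells (2157 against 13.4 CPM), was at 21.9 and 9898, and 64.8% of its UMIs in the low set came from 1 cell. The 10 genes furthest below the chromogranin-low cells, among them Ctrb1 (213 against 9627), Cpa1 (34.6 against 1468) and Pnliprp1 (131 against 3995), were 8 pancreatic enzyme genes, the serpin Serpini2 and the acinar regulator Ptf1a. Of the 16 pancreatic acinar genes measured, 16 were lower, with a median log2 of -4.83. With the 563 enzyme-rich and 139 insulin-rich cells left out of every set, 0 of 16 were lower, 1 was higher and the median was 0.17. For these reasons the comparisons that follow were made between the intestinal-gene-high cells of each kind: 93 Neurog3-positive, 1279 chromogranin-high and 1635 chromogranin-low cells.

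Among intestinal-gene-high cells, the Neurog3-positive cells stood between the other 2 in the endocrine program. In the summed level of cell division genes they stood with the chromogranin-low cells. Against the chromogranin-high cells, 914 of 11376 genes (8.03%) were at least 2-fold higher and 1563 (13.7%) at least 2-fold lower, with a median over all genes of -0.04. Against the chromogranin-low cells, 766 (6.73%) were at least 2-fold higher and 334 (2.94%) at least 2-fold lower, with a median of 0.03. With the cells of highest doublet score removed, the first of these counts was 1378.

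Of 27 endocrine lineage transcription factors measured, other than Neurog3, 23 were at least 2-fold higher than in the chromogranin-low cells and 1 was lower, with a median log2 ratio of 3.16. Against the chromogranin-high cells 0 were higher and 11 lower, with a median of -0.73. The list was uneven. Insm1, a zinc finger repressor needed for endocrine maturation, was at 198 CPM (180 to 217) in the Neurog3-positive cells, 276 in the chromogranin-high and 1.27 in the chromogranin-low cells. Pax4, a homeodomain repressor that steers endocrine subtypes, was at 54.7 (45.3 to 65.4), 75.3 and 0.218 CPM in the same order. Nkx2-2, a homeodomain factor of the same cascade, was at 72.0 (61.2 to 84.1), 77.3 and 0.960 CPM, a log2 difference of -0.10 from the chromogranin-high cells. These 3 genes were thus within 1.5-fold of the chromogranin-high cells and far above the chromogranin-low cells.

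Neurod1, another gene that Neurog3 acts upstream of, was further below. Neurod1 was at 107 CPM (94.2 to 122) against 400 and 2.18, a log2 ratio of -1.88 to the chromogranin-high cells. Pax6, which activates hormone genes, was at 35.1 against 141 and 1.07 CPM, and Isl1, a LIM homeodomain factor, at 125 against 288 and 3.08. The lowest relative to the chromogranin-high cells were Etv1 (22.3 against 199 CPM, log2 -3.10) and Lmx1a (5.47 against 53.3, log2 -3.07), the latter a factor of serotonin-producing enterochromaffin cells. Fev, another factor of that lineage, was at 41.9 against 96.5 CPM. Sox4 was the highest of the list relative to the chromogranin-high cells, at 239.6 CPM (219.5 to 261) against 142 and 72.0, a log2 ratio of 0.75. Neurod2, a close relative of Neurod1 with fewer than 200 UMIs in the library and so outside the counts, was at 11.4 CPM (25 UMIs in 17 of 93 cells) against 0.472 and 0.0437.

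**Figure D2:**
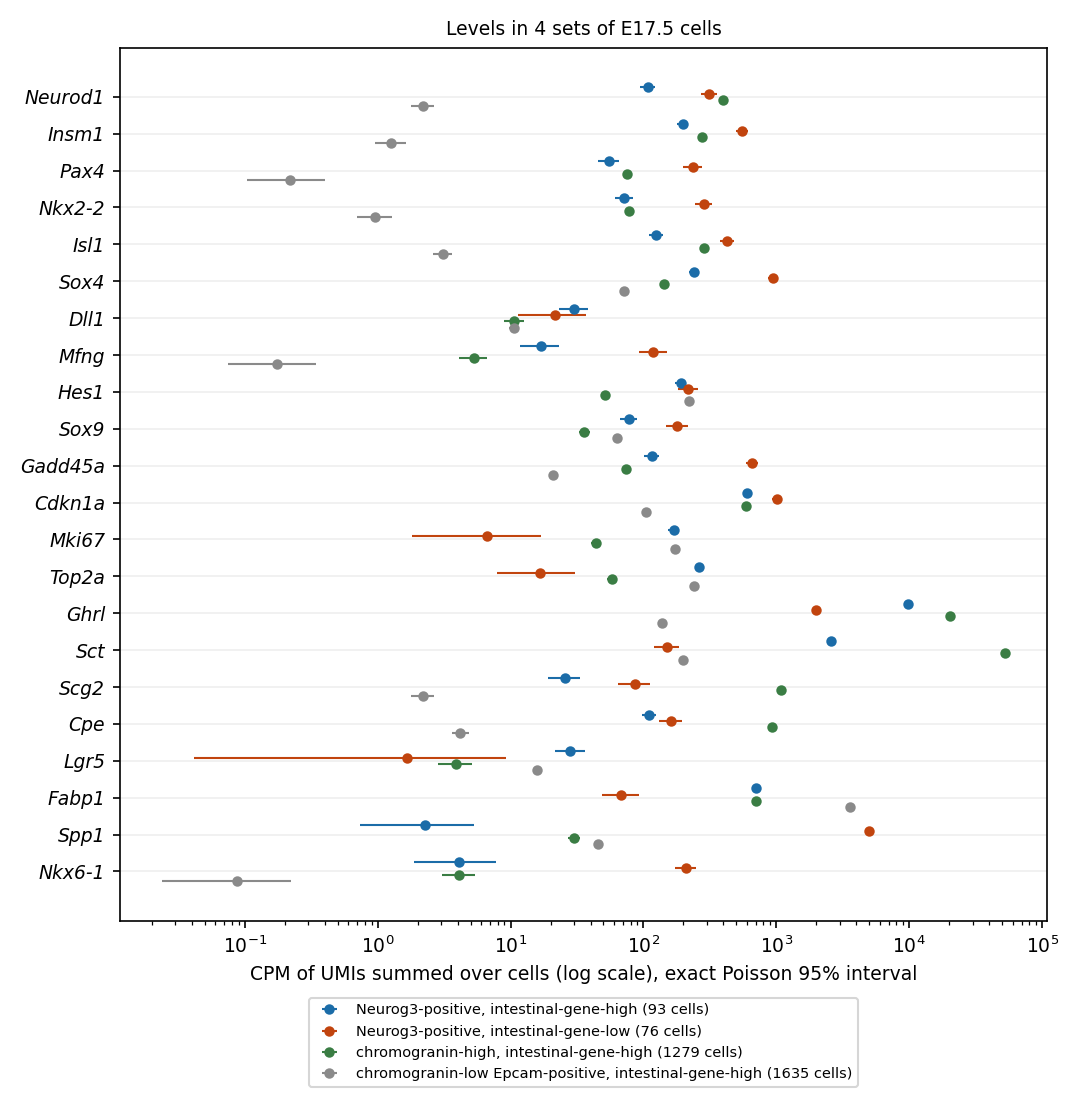
Levels of the genes named at the left in CPM on a log axis, with exact Poisson 95% intervals, for 4 sets of E17.5 cells. Insm1, Pax4 and Nkx2-2 lie close together in the Neurog3-positive (blue, 93 cells) and chromogranin-high (green, 1279) intestinal-gene-high cells. These genes are there far above the chromogranin-low cells (grey, 1635). Of these 4 sets, Spp1 and Nkx6-1 are highest in the 76 intestinal-gene-low Neurog3-positive cells (orange). Other intestinal-gene-low cells are not shown.

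Genes of the Notch pathway, through which neighbouring cells restrain Neurog3, lay on both sides of the comparison sets. Of 19 measured, 5 were at least 2-fold higher and 3 lower than in the chromogranin-high cells (median 0.27), and 7 were higher and 1 lower than in the chromogranin-low cells (median 0.29). The ligand Dll1 was at 30.1 CPM (23.2 to 38.2) against 10.6 in each of the other 2 sets. The ligand Dll3 was at 31.0 CPM against 25.9 and 2.51, and Dll4 at 15.5 against 38.1 and 1.42. So Dll1 stood above both comparison sets, whereas Dll3 and Dll4 stood above the chromogranin-low cells only. Mfng, a glycosyltransferase that modifies Notch receptors, was at 16.9 CPM (11.9 to 23.2) against 5.27 and 0.175, and Lfng, of the same family, at 10.02 against 3.78 and 3.69, although thinned to 2000 UMIs per cell its log2 ratio to the chromogranin-low cells was -0.43. Hes1, the repressor that Notch induces, was at 191 CPM (173 to 210) against 51.7 in the chromogranin-high and 218 in the chromogranin-low cells. Hes1 in the Neurog3-positive cells was thus 3.69-fold above the chromogranin-high cells and within 1.5-fold of the chromogranin-low cells. Dlk1, a non-canonical ligand, was at 4.10 CPM against 120 and 11.7.

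Among factors of the other secretory lineages, 3 of 10 measured were at least 2-fold higher and 0 lower than in the chromogranin-high cells, and 1 was higher and 0 lower than in the chromogranin-low cells. Atoh1, which acts before Neurog3 in choosing secretory fate, was at 8.20 CPM (4.86 to 13.0, 18 UMIs in 9 cells) against 3.78 and 8.56. Sox9, a progenitor factor, was at 77.4 CPM against 36.0 and 63.5.

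The cell division genes were at the level of the chromogranin-low cells. All 15 G2/M genes measured were at least 2-fold higher than in the chromogranin-high cells (median 1.91), and 0 of 15 differed by 2-fold from the chromogranin-low cells (median -0.03). Of 17 S phase genes, 16 were higher than in the chromogranin-high cells (median 1.70) and 0 differed by 2-fold from the chromogranin-low cells. With each cell thinned to 2000 UMIs, 4 were lower than in the chromogranin-low cells, as were 2176 of all 11376 genes. Mki67, a protein of dividing nuclei, was at 169 CPM (152 to 187) against 44.2 and 171, and Top2a, which untangles chromosomes, at 263 (242 to 286) against 57.5 and 241. Pcna, the replication clamp, was at 165 CPM against 58.9 and 147.

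Of 13 genes of cell cycle exit measured, 4 were at least 2-fold higher and 0 lower than in the chromogranin-low cells (median 0.43), and 0 were higher and 2 lower than in the chromogranin-high cells (median -0.73). Cdkn1a, the cyclin kinase inhibitor p21, was at 606 CPM (574 to 639) against 588 in the chromogranin-high and 104 in the chromogranin-low cells. Gadd45a, a growth arrest gene, was at 115 CPM (101.5 to 130.3) against 74.3 and 21.0, and Btg2, an antiproliferative gene, at 395 against 714 and 139. Cdkn1a was uneven among cells: its median per cell was 330.4 CPM in the Neurog3-positive and 526 in the chromogranin-high cells, and its 90th percentile 3473 and 1445 CPM. The summed level of the 93 cells thus stood above their median cell, which was below the median chromogranin-high cell. Cdkn1a was counted in 84 of the 93 cells, and 1 cell held at most 5.11% of its UMIs. Whether cells with Cdkn1a also held G2/M genes was not tested.

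A cell was counted as cycling when it had at least 3 UMIs over the 15 G2/M genes after each cell had been thinned at random to 2000 UMIs, so that depth was equal. Of the 93 intestinal-gene-high Neurog3-positive cells, 40 (43.0%, 32.8 to 53.7) met this, against 67 of 1256 chromogranin-high (5.33%, 4.16 to 6.73) and 884 of 1585 chromogranin-low cells (55.8%, 53.3 to 58.2). Shallower cells were left out, 0 of the Neurog3-positive, 23 of the chromogranin-high and 50 of the chromogranin-low. At their own depth the shares were 71.0%, 10.8% and 82.4%. Of the 76 intestinal-gene-low Neurog3-positive cells 2 (2.63%, 0.320 to 9.18) were cycling. Among the high cells the share was lower where the chromogranin share was higher, at 27 of 46 (58.7%, 43.2 to 73.0) with Chga and Chgb under 0.02%, 6 of 18 (33.3%, 13.3 to 59.0) from 0.02% to 0.1%, and 7 of 29 (24.1%, 10.3 to 43.5) at 0.1% or more. The last interval lies above that of the chromogranin-high cells without Neurog3, chosen at the same chromogranin share. Median depths before thinning were 10485 and 8120 UMIs.

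**Figure D3:**
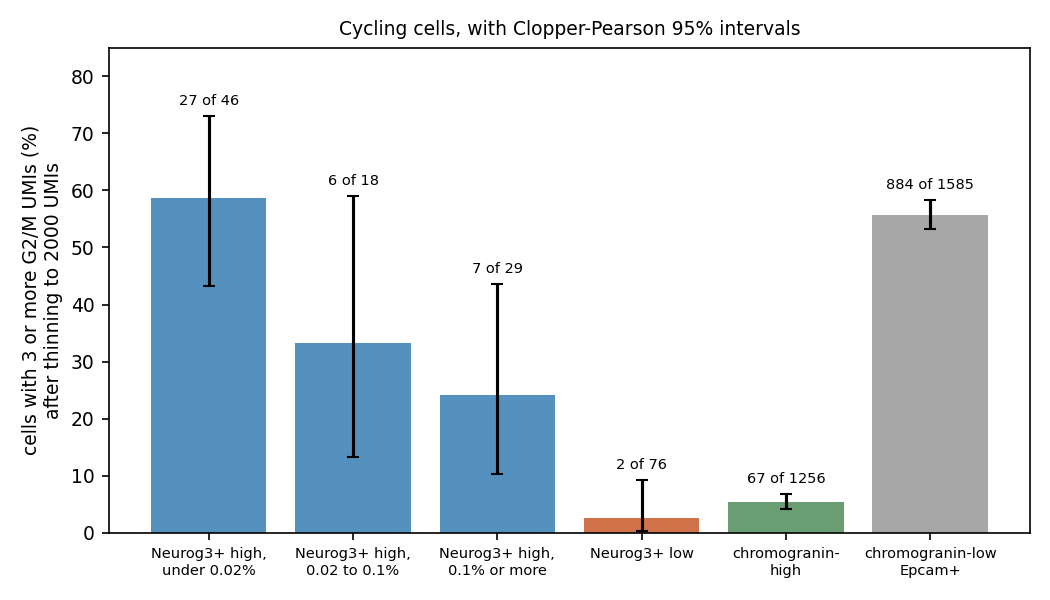
Bars give the percentage of cells with at least 3 G2/M UMIs after thinning to 2000 UMIs, with exact Clopper-Pearson 95% intervals and the counts above. The 3 blue bars are the intestinal-gene-high Neurog3-positive cells by Chga and Chgb share, the orange bar the low set (2 of 76), and green and grey the chromogranin-high and chromogranin-low cells that are intestinal-gene-high.

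Hormone genes were far below the chromogranin-high level. Of 14 measured, 0 were higher and 13 at least 2-fold lower than in the chromogranin-high cells (median -4.59), and 10 were higher and 0 lower than in the chromogranin-low cells (median 2.55). Ghrl, the ghrelin gene, was at 9723 CPM against 20260 and 137. Sct, secretin, was at 2585 CPM against 52476 and 197, Cck, cholecystokinin, at 614 against 34511 and 39.7, and Gip at 26.9 against 11814 and 7.51, the last of these turning to a log2 ratio of -0.28 with 2 or more Neurog3 UMIs required. Ghrl was thus 2.08-fold below the chromogranin-high cells, and Sct, Cck and Gip were much further below. Tac1, the substance P precursor, was at 279 CPM against 1218 and 0.829, with 20.4% of its UMIs in the 93 cells from 1 cell. For Cck 1 cell held 51.7%, and the median per cell was 105 CPM against 7275 in the chromogranin-high cells. Hormone UMIs came to at least 1% of the total in 28 of 93 cells (30.1%, 21.0 to 40.5), led by Ghrl in 20 and Sct in 11, and stayed under 0.1% in 35. In the chromogranin-high cells 93.6% reached 1%. Because hormone RNA was also counted in cells of other kinds (Sct in 63.7% of chromogranin-low cells), shares of cells with a single hormone UMI are not read here.

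The secretory machinery followed the same order. All 11 granin and prohormone processing genes other than Chga and Chgb were at least 2-fold lower than in the chromogranin-high cells (median -3.49) and at least 2-fold higher than in the chromogranin-low cells (median 3.70). Pcsk1, the prohormone convertase, was at 77.4 CPM (66.2 to 89.98) against 265 and 0.982. Scg2, secretogranin, was furthest at 25.5 CPM against 1075 and 2.18, and Cpe, carboxypeptidase E, was at 110.2 against 924 and 4.19. Of 18 exocytosis and excitability genes 17 were lower than in the chromogranin-high cells (median -1.96) and 15 higher than in the chromogranin-low cells (median 2.45). Rab3c, a vesicle GTPase, was at 40.5 CPM against 121 and 0.153, and Snap25, a membrane fusion gene, at 9.11 against 86.2 and 0.284. Since Chga and Chgb chose the comparison sets, the lower level of genes that accompany them describes those sets as much as the Neurog3-positive cells.

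**Figure D4:**
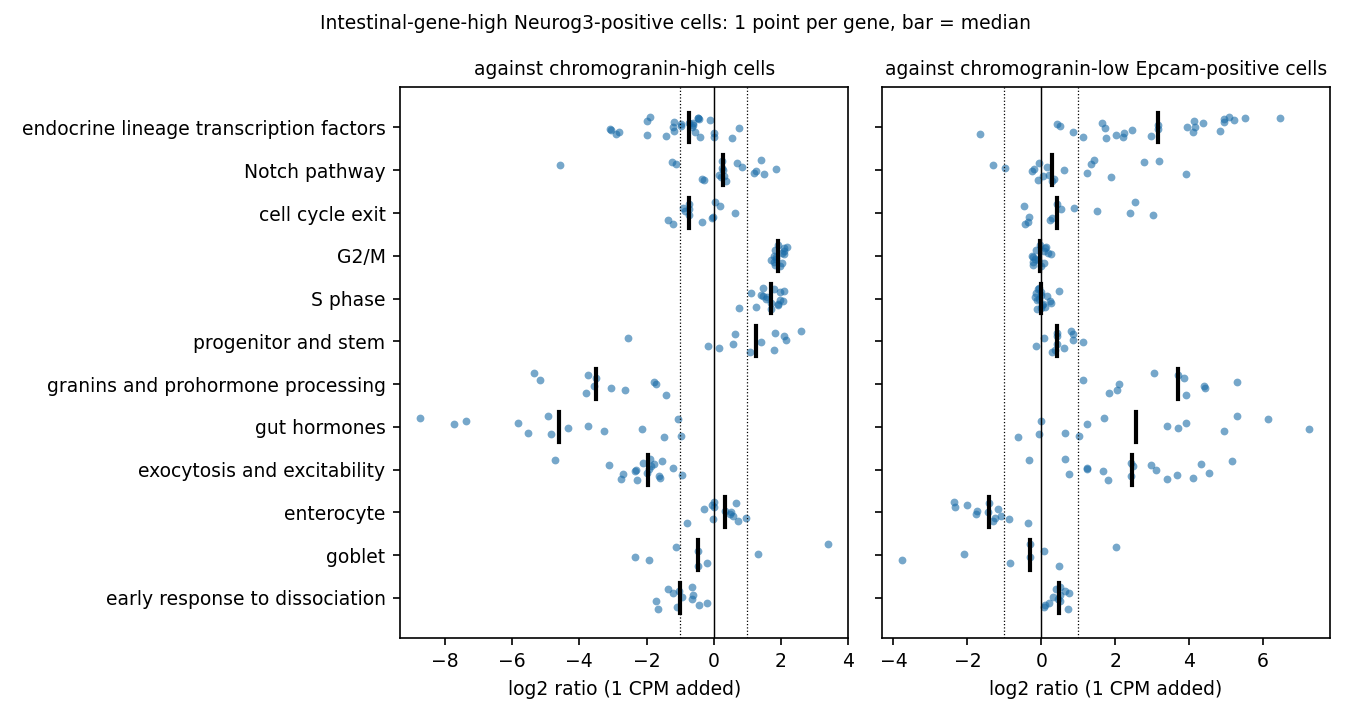
Each point is 1 gene of the list named at the left, at its log2 ratio (1 CPM added) in the 93 intestinal-gene-high Neurog3-positive cells against the chromogranin-high (left panel) and chromogranin-low cells (right panel) that are intestinal-gene-high. Black bars are medians and dotted lines mark 2-fold. G2/M genes sit at a median of 1.91 on the left and -0.03 on the right, and endocrine transcription factors at -0.73 and 3.16.

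Genes of progenitors and stem cells were near or above the chromogranin-low level. Of 12 measured, 7 were at least 2-fold higher and 1 lower than in the chromogranin-high cells (median 1.25), and 1 was higher and 0 lower than in the chromogranin-low cells (median 0.43). Lgr5, a receptor of crypt base stem cells, was at 28.2 CPM (21.7 to 36.2, in 32.3% of cells) against 3.86 and 15.8. Olfm4, another gene of these cells, was at 132 CPM (117 to 148) against 36.1 and 97.6, and Slc12a2, an ion transporter of crypts, at 153 against 35.01 and 114. Lgr5, Olfm4 and Slc12a2 all stood above both comparison sets, less so above the chromogranin-low cells.

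Enterocyte genes, of the absorptive lineage, were lower than in the chromogranin-low cells for 11 of 13 measured, with a median of -1.42 and 0 higher. Fabp1, a fatty acid binding protein, was at 706 CPM against 704 in the chromogranin-high and 3612 in the chromogranin-low cells, and Apoa1, an apolipoprotein, at 357 against 372 and 1432. Against the chromogranin-high cells 0 of 13 enterocyte genes differed by 2-fold, with a median of 0.33. This comparison depended on which cells were taken: with Neurog3 of at least 2 UMIs 4 were lower (median -0.43), and with doublets removed 4 were higher (median 0.66). Of 8 goblet genes 2 were higher and 3 lower than in the chromogranin-high cells (median -0.46). Tff3, a trefoil factor, was at 2115 CPM against 4642 and 520.4, and Muc2, the main mucin, at 13.7 (30 UMIs in 5 of 93 cells) against 0.393 and 16.9.

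Other genes that stood out by size were named by rank. Ooep, known from oocytes, was at 72.0 CPM (61.2 to 84.1) against 1.89 in the chromogranin-high and 0.349 in the chromogranin-low cells, and was counted in 23.7% of the Neurog3-positive cells. It was among the 10 genes with the highest ratio in both comparisons, as was Slc39a2, a zinc transporter, at 67.9 CPM (57.4 to 79.7) against 10.9 and 0.655. Guca2a, guanylin, was at 80.2 CPM against 5.43 and 48.6. Igfbpl1 (84.3 against 33.4 and 0.742) and Gfra3, a co-receptor for neurotrophic factors (103 against 115 and 1.20), were both above the chromogranin-low cells, and only Igfbpl1 was above the chromogranin-high cells by 2-fold. Slc38a5, an amino acid transporter, was at 0 UMIs in the 93 cells, at least 62.3-fold lower than its 85.1 CPM in the chromogranin-high cells. The 10 genes furthest below the chromogranin-low cells were Clca4b (0.911 against 23.6 CPM, 2 UMIs), Reg3b (6.83 against 57.6), Sult6b2, Reg1, Spns3, Aqp8, Mme, Tcf23, Ifit1bl2 and Fabp1.

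Bmi1, the locus of the reporter that all animals carried, was at 13.2 CPM (8.85 to 19.0) in the 93 cells. It was at 18.1 (15.8 to 20.6) in the chromogranin-high and 7.81 (7.03 to 8.67) in the chromogranin-low cells. In the 76 low cells it was at 28.1 (16.4 to 44.9). The interval of the 93 cells overlapped that of the chromogranin-high cells and lay just above that of the chromogranin-low cells. The eGFP transcript came to 1 UMI over all 169 cells, against 34 and 45 in all chromogranin-high and chromogranin-low cells. These are raw counts, out of 2801185, 15291606 and 54355001 UMIs in that order. Of 14 Polycomb genes measured (list Polycomb and reporter) 1 was higher and 3 were lower than in the chromogranin-high cells, and 0 differed by 2-fold from the chromogranin-low cells. With cells thinned to 2000 UMIs, 7 were lower in the first comparison, and 3 were higher and 4 lower in the second. Thinned in the same way, 2714 of all 11376 genes were lower in the first comparison. In the second 1567 were higher and 2176 lower. The gene that was higher was Ezh2, a histone methyltransferase of the Polycomb complex, at 104 CPM against 41.8 and 95.6.

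Markers of other cell types were summed over the 169 cells. The 5 mesothelial genes came to 640.8 CPM, of which Krt19, a keratin also made by intestinal epithelium, gave 632, while Wt1 and Lrrn4 were at 0 UMIs. In the 93 cells the sum was 735 CPM, against 537 in the chromogranin-high and 1026 in the chromogranin-low cells. The other summed levels were 43.6 CPM over 8 mesenchymal genes, 6.07 over 6 smooth muscle genes, 6.07 over 6 immune genes, 4.28 over 5 endothelial genes, 5.35 over 5 erythroid genes, 3.57 over 8 tuft genes and 35.3 over 10 enteric neural and glial genes. Of the sets defined by content, 0 Neurog3-positive cells were collagen-rich, 2 were enzyme-rich and 4 were insulin-rich, all 4 in the low set. Genes of the early response to dissociation were lower by 2-fold for 6 of 12 against the chromogranin-high cells (median -0.997) and within 2-fold for all 12 against the chromogranin-low cells (median 0.47). On thinned cells 4 of the 12 early response to dissociation genes were higher than in the chromogranin-low cells, beside 1567 of all 11376 genes. Of 16 pancreatic acinar genes, 14 were lower in the 93 cells than in the chromogranin-high cells (median -2.93), and of 11 pancreatic islet genes 8 were lower (median -2.08), or 5 with insulin-rich and enzyme-rich cells left out. The part of these genes in the other differences was not tested.

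The 93 intestinal-gene-high cells differed among themselves along the chromogranin share, which the rule for Neurog3-positive cells did not use. With Chga and Chgb under 0.02% (46 cells), from 0.02% to 0.1% (18) and at 0.1% or more (29), Neurod1 was at 50.6 (39.3 to 64.0), 136 (102 to 177) and 259 CPM (214 to 311). Insm1 was at 138.5 (119.5 to 159.7), 209.8 and 370.2 CPM, and Pax4 at 32.2, 58.8 and 120.4 CPM. All 3 were higher in each class than in the one before, with overlapping intervals only for Pax4 in the first 2 classes. Cpe stepped up between the first 2 classes, from 13.2 to 258 and then 279 CPM, as did Scg2 (0.733, 76.7 and 56.8) and Pax6 (5.86, 92.1 and 74.95). Fev was at 7.33, 51.2 and 141 CPM, and Lmx1a was at 0 in the first 2 classes and 27.3 (14.1 to 47.6) in the last. Tac1 likewise was at 0, 2.56 and 1388 CPM, so nearly all UMIs of Lmx1a and Tac1 were in the class with most chromogranin. Ghrl was instead highest in the middle class, at 3758, 23494 and 15981 CPM, although 15.4% of all Ghrl UMIs of the 93 cells came from 1 cell.

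In the other direction, Dll1 was at 44.7 CPM (34.2 to 57.4) in the class with least chromogranin, 7.68 (1.58 to 22.4) in the middle and 4.54 (0.550 to 16.4) in the last. Fabp1 was at 1044, 159 and 145 CPM and Sox4 at 279, 189 and 161. Hes1 (192, 228 and 154 CPM) and Top2a (273, 251 and 243) differed by less than 2-fold between classes. The Top2a values are sums over cells. Counted cell by cell at equal depth, the share of cycling cells was 58.7%, 33.3% and 24.1% in the same classes. Dll1 was thus highest in the chromogranin-poor cells, while the intervals of Hes1 overlapped between neighbouring classes. Median depth was 28689.5, 11564.5 and 10485 UMIs in the 3 classes.

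**Figure D5:**
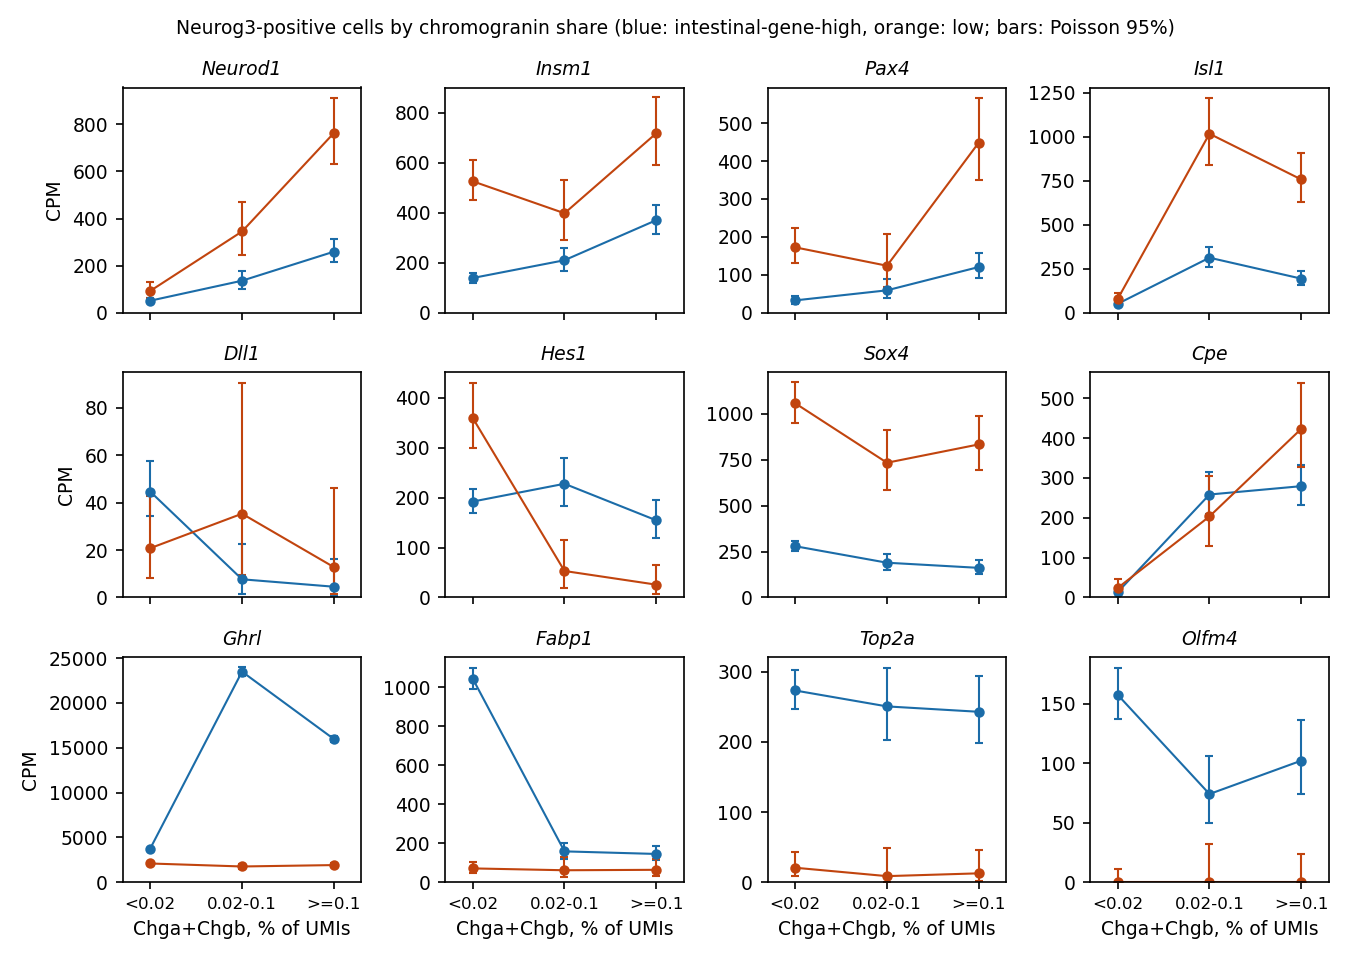
Levels in CPM (y axes, linear and different for each gene) by the share of UMIs from Chga and Chgb (x axes, in %), for the intestinal-gene-high (blue; 46, 18 and 29 cells) and intestinal-gene-low Neurog3-positive cells (orange; 41, 11 and 24 cells), with exact Poisson 95% intervals. Neurod1 is higher in each class than in the one before in both sets, and Dll1 in the high set is at 44.7 CPM in the first class and 4.54 in the last.

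Split by their own Neurog3 count, which is the value that chose the cells, the 93 cells (25 with 1 UMI, 38 with 2 to 4, 17 with 5 to 9 and 13 with 10 or more) showed the following. Gadd45a was at 45.7, 72.0, 189.6 and 318 CPM in that order, Mfng at 3.81, 11.7, 23.4 and 54.4, and Neurod2 at 0, 7.79, 20.8 and 34.9. Insm1 was at 137, 149, 296 and 369 CPM, and Pax4 at 40.0, 34.1, 67.5 and 148. These genes were thus highest in the cells with most Neurog3. Neurod1 (108, 95.4, 109 and 151 CPM) had overlapping intervals in all 4 bins, and Fabp1 was at 2160, 281, 275 and 77.7 CPM. The summed enterocyte level was 7184 CPM in cells with 1 Neurog3 UMI and 1549 in cells with 10 or more, and the part of mixed droplets in this was not tested. Of the 93 cells, 9 were among those of highest doublet score.

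The intestinal-gene-low cells held the other end of most of these genes. Comparing the 93 high with the 76 low cells, 1872 of 11376 genes (16.5%) were at least 2-fold higher and 2140 (18.8%) at least 2-fold lower in the high cells, with a median over all genes of -0.16. Scaling with edgeR's TMM factors moved that median to 0.01. Of the 27 endocrine transcription factors 2 were higher and 21 lower in the high cells (median -1.69), of 11 pancreatic islet genes 0 were higher and 11 lower (median -4.48), of 15 G2/M genes 15 were higher (median 3.89), and of 13 enterocyte genes 13 were higher (median 4.13).

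Insm1 was at 552 CPM (494 to 614) in the low cells, Pax4 at 234 (198 to 276), Nkx2-2 at 284 (243 to 329.8) and Neurod1 at 312 (269 to 360), each above the 93 cells. Sox4 was at 939.6, Gadd45a at 656, Btbd17, a BTB domain gene, at 378, and Cbfa2t3, a transcriptional corepressor, at 277 CPM, against 239.6, 115, 36.4 and 32.3 in the high cells. The transcription factors of pancreatic endocrine cells were likewise higher: Nkx6-1 at 208 CPM (173 to 248, in 40 of 76 cells) against 4.10 (4 of 93 cells), and Pdx1 at 109 against 8.65. Spp1 was at 5017 CPM (43 of 76 cells) against 2.28 (4 of 93 cells), Clu, clusterin, at 869 against 2.28 and Mia at 414 against 0.455. Col9a3 at 208 CPM was at least 152-fold higher than the 0 UMIs of the high cells, and Cxcl12 at least 111-fold. In the other direction Olfm4 and Guca2a were at 0 UMIs in the low cells, where the 132 and 80.2 CPM of the high cells were at least 26.6-fold and 16.2-fold higher. The Neurog3-positive cells of the low set thus held more of the early endocrine factors per UMI, together with Spp1, Nkx6-1 and Pdx1, and had lower levels of the G2/M genes. The split was made on genes of the intestinal epithelium, so the lower enterocyte genes, Olfm4 and Guca2a describe the split and are not a separate result. Spp1, Nkx6-1 and Pdx1 were not particular to the Neurog3-positive cells of the low set. Of 323 chromogranin-high, intestinal-gene-low cells without Neurog3, 214 had a UMI of Nkx6-1, 211 of Pdx1 and 53 of Spp1. Spp1 was also counted in 228 of 665 chromogranin-low, intestinal-gene-low cells. Where the low cells came from was not tested.

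Within the low set, genes ran in opposite directions along the Neurog3 count, the value that chose the cells. With 1 (17 cells), 2 to 4 (11), 5 to 9 (8) and 10 or more Neurog3 UMIs (40), Btbd17 was at 22.3, 114, 434 and 588 CPM and Gadd45a at 81.7, 183, 803 and 996. Isl1 ran the other way at 973, 629, 289 and 171 CPM. It was counted in 28 of 76 cells, and 1 cell with 1 Neurog3 UMI held 16.6% of its UMIs in the low set. Hes1 was at 359.5 CPM (298 to 429.6) in the 41 low cells with Chga and Chgb under 0.02%, 53.0 in the next 11 and 25.7 in the last 24. One cell held 24.4% of the Hes1 UMIs of the low set. Hormones reached 1% of UMIs in 14 of 76 low cells (18.4%), with Pyy in 6, Ins2 in 4, Sst in 3 and Ghrl in 3.

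Cells with a Neurog3 UMI were also counted in the other libraries by the same rule. With every cell thinned to 2000 UMIs, 89 of 4412 E17.5 cells still had one (2.02%, 1.62 to 2.48). The E12.5 library had 9 among 3655 (0.246%, 0.113 to 0.467), the adult library 7 among 3102 (0.226%, 0.0908 to 0.464), and the irradiated library 6 among 2679 (0.224%, 0.0822 to 0.487). At their own depth 26, 169, 23 and 19 cells had a UMI, or 0.615%, 3.67%, 0.607% and 0.597%. The E17.5 interval lay above the other 3. The E17.5 share pools the 2 sets, and the 76 intestinal-gene-low cells held 65.8% of the Neurog3 UMIs. A share at equal depth was not taken for intestinal-gene-high cells alone. Because cells were sorted and the gates are not given, these are shares of sorted cells.

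The few cells of the other libraries are given beside those of E17.5. At E12.5 16 of 26 were intestinal-gene-low, Neurod1 was counted in 1 cell and Isl1 and Ghrl in 0, while Spp1 was at 885 CPM, Nkx6-1 at 132, Sox4 at 686 and Hes1 at 263. In the adult 21 of 23 were intestinal-gene-high, with Neurod1 at 183 CPM, Ghrl at 13895, Mki67 at 184 and Spp1 at 0. In the irradiated adult all 19 were intestinal-gene-high, with Neurod1 at 581 CPM, Chgb at 31832, Cdkn1a at 2810 (2647 to 2981), and Mki67 at 0 UMIs. Over all 169 E17.5 cells Spp1 was at 1086 CPM, Nkx6-1 at 48.2, Sox4 at 390.9, Hes1 at 196 and Neurod1 at 152. Taken by set, Spp1 differed from E12.5 in both directions. In intestinal-gene-high cells it was at 2.28 CPM at E17.5 against 411 at E12.5 (34 UMIs in 4 of 10 cells). In intestinal-gene-low cells it was at 5017 against 964 CPM. The split was set on E17.5 cells, and the sets it gave at E12.5 may not be alike to those of E17.5. At E12.5 median depth was 3554.5 UMIs in the high and 31686 in the low cells, against 20939 and 6087.5 at E17.5. Cdx1 was at 0 UMIs in both E12.5 sets. Over the 93 intestinal-gene-high E17.5 cells, the nearer match to both adult libraries, Neurod1 was at 107 CPM, Ghrl at 9723, Mki67 at 169, Chgb at 1332, Cdkn1a at 606 and Spp1 at 2.28. Each library is 1 sample, so these are values set side by side.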

How the data were processed

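Single-cell libraries were read from the gene-by-barcode matrices of UMI counts that the authors deposited, with 31054 features and 1 library per group. The counts were made with Cell Ranger 3.1.0 on build mm10, per the submitters' processing notes. The feature and barcode names are other text files the authors deposited. The choice of Neurog3-positive cells and the 26 gene lists were made with earlier results of these data known, and the split by intestinal genes after the data had been seen. UMIs were summed over the cells of a set and scaled to CPM. Ratios are log2 with a pseudocount of 1 CPM, over genes with at least 200 UMIs in the kept E17.5 cells, and 2-fold was the size named. Genes in the text are those of the lists, plus the 10 highest and 10 lowest ratios of each comparison with at least 50 UMIs in, and a UMI in 10% of the cells of, the higher set, and the leading genes of clusters. Counts have exact Poisson and shares exact Clopper-Pearson 95% intervals, and a count of 0 was set at 3 counts for bounds. Shares of cycling cells and of cells with Neurog3 were taken after thinning to 2000 UMIs. Enzyme-rich, insulin-rich and collagen-rich cells had at least 2%, 1% and 0.5% of UMIs from those genes. Putative doublets were kept, since the automatic threshold of Scrublet called 26 barcodes (0.565%), and removing the 193 cells of highest score was an alternative. Leiden clusters were made for all kept cells. Some genes of the lists are not reported here by name. The scripts were tested on simulated data. The alternatives were stricter cell filters, doublet removal, higher Neurog3 minimums, leaving out insulin-rich and enzyme-rich cells, other pseudocounts, gene minimums, scalings (means of each cell's CPM, TMM) and thinning depths, and other thresholds of the split. Cells were clustered with scanpy 1.11.5, leidenalg 0.10.2, igraph 0.11.9 and scikit-learn 1.9.0. Tables and intervals used pandas 2.3.3 and scipy 1.17.1 with numpy 2.4.6 in Python 3.11.15, plots matplotlib 3.10.9, and TMM factors edgeR 4.0.16 in R 4.3.3.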

Additional observations from a re-analysis of the deposited data

How the results depend on the processing

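No paired analysis was possible because each group has 1 library. Without replicates, none of the values carries an error between animals, and genes with few UMIs are limited by counting. Under the alternatives 159 values of the main results stayed within 1.5 times the reported count or within its interval, and 57 did not. The cause of the other changes was not tested, except that fewer or more genes enter under another UMI minimum. The counts of genes at least 2-fold higher and lower are given in that order. All Neurog3-positive against chromogranin-high cells gave 1395 and 1760 when cells were thinned to 2000 UMIs, 311 and 513 with a pseudocount of 10 CPM, 557 and 459 with genes of at least 1000 UMIs, and 1783 lower with at least 1 UMI. Against chromogranin-low cells the counts were 1775 and 1650 thinned, 348 and 143 with 10 CPM, 365 and 229 with 1000 UMIs, and 1017 lower by means of each cell's CPM. Intestinal-gene-high cells against chromogranin-high cells gave 1609 and 2714 thinned, 329 and 670 with 10 CPM, 594 and 634 with 1000 UMIs, 2351 lower with 1 UMI, and 1378 higher with doublets removed. Against chromogranin-low cells they gave 1567 and 2176 thinned, 223 and 83 with 10 CPM, 282 and 177 with 1000 UMIs, and lower counts of 544 with Neurog3 of at least 3 UMIs, 711 by means of each cell's CPM and 542 with 0.1 CPM. High against low Neurog3-positive cells gave 862 and 1048 with 10 CPM, 1132 and 910 with 1000 UMIs, and 3608 lower with 1 UMI. The share of Neurog3-positive cells at E17.5 was 2.76% with at least 2 UMIs, 2.28% with 3, and 2.02% and 2.70% thinned to 2000 and 4000 UMIs. The share of cycling cells was 15.4% with 5 G2/M UMIs, 16.0% thinned to 1000 and 42.0% without thinning, and among intestinal-gene-high cells 28.0%, 29.0% and 71.0%. Set by library, the unthinned share was 3.67% for E17.5, 0.615% for E12.5, 0.607% for adult and 0.597% for irradiated cells. With 2 Neurog3 UMIs in thinned cells it was 1.34% for E17.5, 0.109% for E12.5 and 0.0322% for adult cells. Thinned to 4000 it was 2.70% for E17.5, 0.562% for adult and 0.575% for irradiated cells, and thinned to 1000 it was 1.49% for E17.5. Signs turned in 9 single-gene values. With insulin-rich and enzyme-rich cells left out, the log2 ratios of all Neurog3-positive to chromogranin-low cells were 0.074 for Cpa1, 0.22 for Ctrb1, 0.42 for Pnliprp1, 0.34 for Try10 and 0.014 for Try5. Among intestinal-gene-high cells, Clca4b turned to 1.09 against chromogranin-high cells and Lfng to -0.43 against chromogranin-low cells when thinned, and Gip to -0.28 and -0.23 with Neurog3 of at least 2 and 3 UMIs.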
